A study of Mus musculus with 16 samples.

Results

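Regulatory T cells (Tregs) of the injured mouse heart were compared by surface CCR8, a chemokine receptor: 4 CCR8+ libraries were set against 4 CCR8- libraries, across all genes. These 8 libraries are all the heart libraries among the 16 of the study, and they were chosen by their labels. The other 8 are CCR8+ and CCR8- Tregs of the mediastinal lymph node (MLN), the node that drains the heart region. They also entered the filter and the estimate of each gene's spread, so standard errors and adjusted p-values of heart differences rest on all 16 libraries. Otherwise they are used below only where a heart difference was set beside the one in the node. All 4 groups came from Foxp3-GFP reporter mice aged 8 weeks, 7 days after myocardial infarction (MI), so the CCR8- cells come from injured animals too, and no uninjured heart is among the groups. About 100 Tregs per library were sorted first magnetically and then by FACS, and libraries were built from total RNA with the NEBNext Ultra RNA kit. The labels do not tie libraries to individual mice, so every p-value below measures the spread between these libraries, which may be technical.

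Tregs are CD4+ T cells that express the transcription factor Foxp3 and restrain immune responses. In tissues, including injured muscle and heart, Tregs are also known for supporting repair, through factors such as amphiregulin and through receptors such as ST2 for the alarmin interleukin 33. CCR8 binds the chemokine CCL1 and, in mice, CCL8, and it is known as a marker of activated Tregs that reside in tissues and tumours. The comparison asks what, besides the receptor used for the sort, sets CCR8+ apart from CCR8- Tregs inside the same injured organ.

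Levels are given as log2(FPKM + 1), where FPKM is the fragment count per kilobase of transcript, scaled to the size of the library. The column headings call the values FPKM. Without the log they sum to nearly the same total in each library, and the top 74 ranks hold equal values in all libraries. A shared distribution gives near-equal totals in either unit, so TPM, a unit scaled to a fixed sum, cannot be told apart from FPKM. Values per library are listed in the order of replicates 1 to 4, which are not pairs. A difference is CCR8+ minus CCR8- on this scale with its standard error, and a fold is the ratio of FPKM + 1. A gene was called at a Benjamini-Hochberg adjusted p under 0.05 in limma, over the 10369 genes that reached an FPKM of 1 in 4 libraries or more of the 16. Each heart CCR8- library held 11142 to 12704 genes above 0 and each CCR8+ library 10789 to 11867, a difference in means that did not pass (exact permutation test, two-sided, p = 0.286, where 0.0286 is the smallest p that 4 against 4 allows). Across the tested genes, Pearson's r between pairs of libraries was 0.828 to 0.867 within CCR8-, 0.854 to 0.886 within CCR8+ and 0.793 to 0.878 between the groups. These pairs share libraries, and the genes are not independent replicates. Read depth is unknown, and counting error cannot be given.

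Ccr8 mRNA followed the sort. The gene (chromosome 9, 120092114 to 120094906, GRCm38) stood at 9.76, 9.75, 10.21 and 10.32 in the CCR8+ libraries and at 8.56, 8.2, 8.73 and 8.33 in the CCR8- libraries. The groups did not overlap, yet the sorted-negative cells were far from empty of the transcript. The difference was 1.55 ± 0.29, or 2.94-fold (adjusted p = 0.0234 in limma, n = 4 and 4). In the MLN CCR8+ exceeded CCR8- by 3.18, and a difference between the tissues was not shown for this gene. As this gene defines the sort, its difference checks the labels and is not a finding.

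T cell markers were high in all 8 libraries, and markers of other heart cells were also high in some of them. The summed FPKM of 11 T cell markers was 4430 to 8181 in CCR8- and 5768 to 7335 in CCR8+ libraries, and Cd3d, Cd3g and Cd2 overlapped between the groups. Foxp3 was 4.32, 4.57, 5.06 and 5.66 in CCR8+ and 5.06, 5.92, 5.01 and 5.46 in CCR8- cells (adjusted p = 0.729 in limma). Foxp3 therefore overlapped, and Cd8a, a marker of another T cell lineage, was at most 1.95 in any of the 8 libraries. The 8 CD8 T and NK cell markers, Cd8a among them, summed to 3.83 to 65.8 FPKM in CCR8- and 18.8 to 28.9 in CCR8+ libraries.

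The 12 fibroblast markers summed to between 93.3 and 476 FPKM in CCR8- and 15 and 271 in CCR8+ libraries, and the 11 endothelial markers to between 75.1 and 5640 in CCR8- and 25.3 and 247 in CCR8+ libraries. The top endothelial sum, 5640, belonged to CCR8- replicate 3 and exceeded its T cell sum of 4430, the lowest of the 8. The 12 macrophage and monocyte markers ran from 389 to 1222 in CCR8- and from 12.3 in CCR8+ replicate 1 to 2534 in CCR8+ replicate 2. CCR8+ replicate 2 also held a dendritic cell sum of 4051, against 170 to 346 in CCR8- libraries. Cardiomyocyte markers summed to 5.62 to 92.8 FPKM in CCR8- and 0.366 to 93.8 in CCR8+ libraries, B cell markers to 0.0204 to 20.5 and 0.425 to 56.1, and erythroid markers to 24.4 to 92.8 and 0.568 to 48.8. Pdgfra of fibroblasts, Nppb of cardiomyocytes, Pax5 of B cells and Slc4a1 of red cells were at 0 in all 8 libraries, while other members of their lists were not. In bulk RNA, fewer cells of a type and less RNA per cell cannot be told apart.

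**Figure D1:**
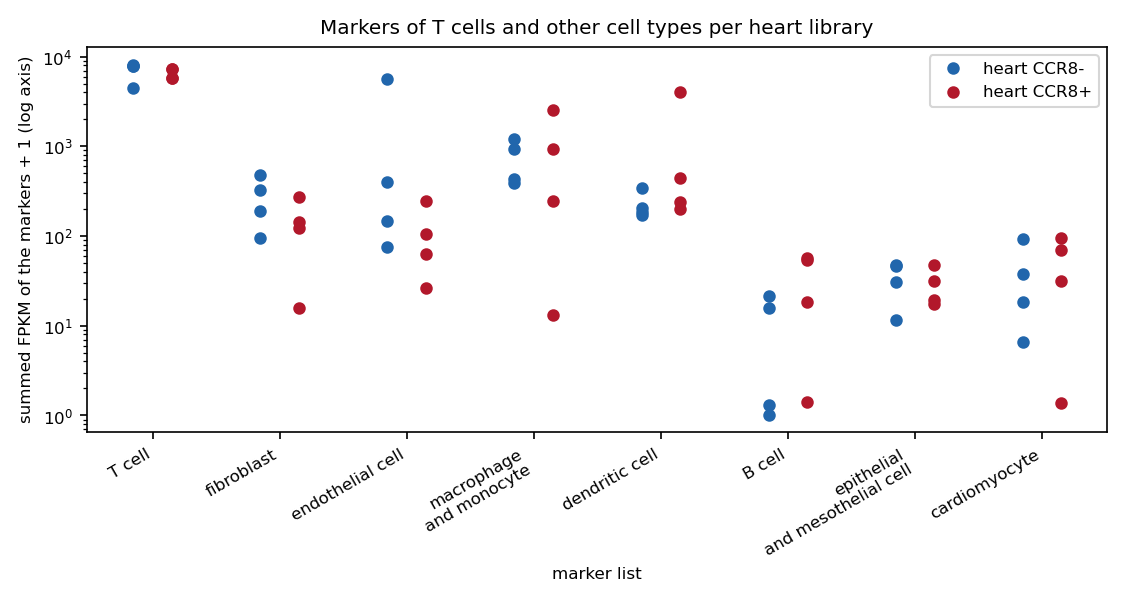
Summed FPKM of cell type markers plus 1 (log axis) in each of the 4 heart CCR8- (blue) and 4 heart CCR8+ (red) libraries, for 8 marker lists. T cell markers lie between 4430 and 8181 in all libraries, while CCR8- replicate 3 stands apart for endothelial markers at 5640 and CCR8+ replicate 2 for dendritic cell markers at 4051.

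Of the 10369 genes tested, 28 were higher and 10 lower in heart CCR8+ Tregs, and 30 of these 38 differed by 2-fold or more. The share called was 0.366% in all, 0.270% higher and 0.0964% lower, so few genes separated the groups past the threshold. All 38 called genes had every CCR8+ library on one side of every CCR8- library, which 6.98% of all tested genes showed, 3.45% above and 3.53% below. At an unadjusted p under 0.05, 6.09% of genes were higher and 5.06% lower. The median difference of all genes was 9.04e-05. As differences are relative to a distribution shared by the libraries, this median cannot show a shift of all genes.

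The count rested on the libraries and on the way the spread was estimated. It was 3 without CCR8+ replicate 3, 4 without CCR8+ replicate 1, 8 without CCR8+ replicate 2, 11 without CCR8- replicate 2 and 5 when only the 8 heart libraries were fitted. In further settings, added once the data had been seen, the count was 7 without CCR8- replicate 3 and CCR8+ replicate 2, which had the highest endothelial and macrophage sums, 12 without CCR8- replicate 3 and CCR8+ replicate 1, and 18 with the fibroblast, endothelial and macrophage markers as a covariate. Of the 38 genes, 3 (Tff1, Pdzk1ip1 and Rps27) stayed called whichever of the 16 libraries was left out, and each of the other 35 lost its call in at least 1 such fit. In the fit of only the 8 heart libraries, Ccr8, Pdzk1ip1, Mif and Il1r2 alone among the 38 kept their calls, so Tff1 lost its call there. For Rps27 the spread within groups is set by shared top ranks, and its call was lost with no filter, with no variance trend and with only the 8 heart libraries (adjusted p up to 0.425). No called gene changed direction in any setting. With 1 library left out, the highest adjusted p of a called gene was 0.172, for Mrpl12. Across all settings it was 0.664, for Fau.

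**Figure D2:**
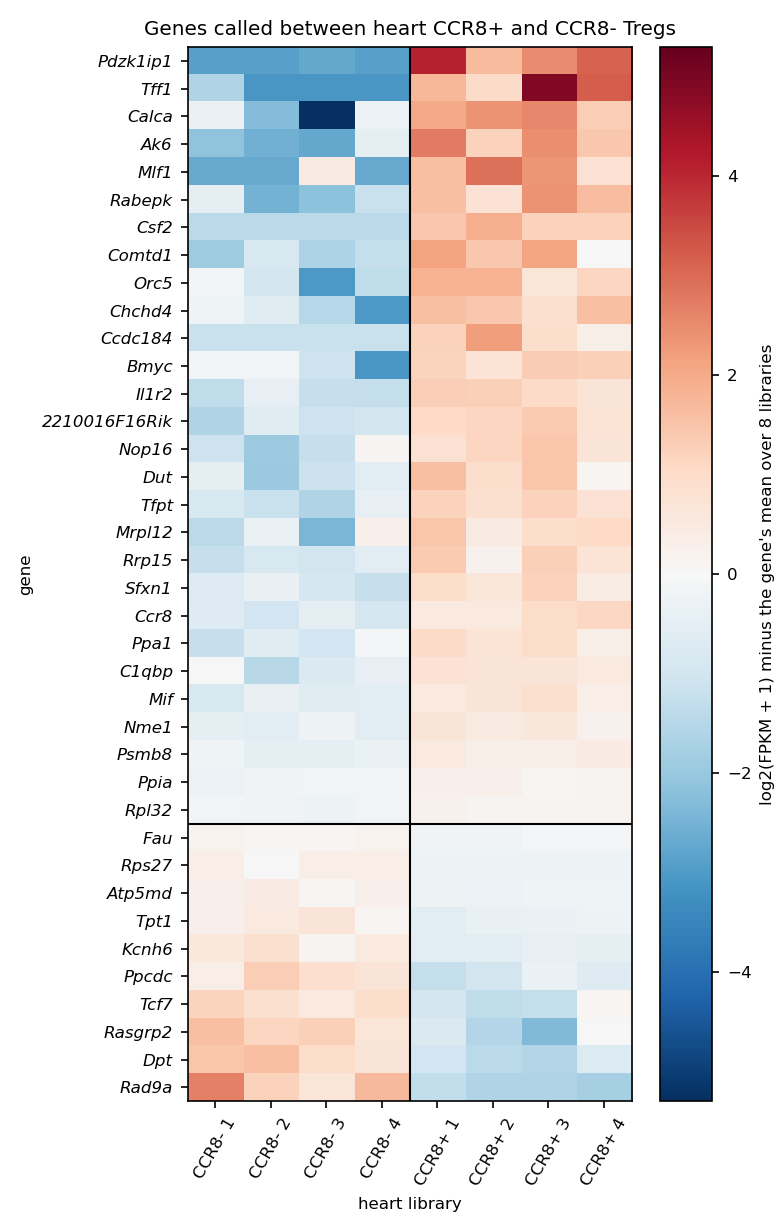
The 38 called genes (rows, ordered by difference) in the 4 CCR8- and 4 CCR8+ heart libraries (columns); colour is log2(FPKM + 1) minus the gene's mean over the 8 libraries. Pdzk1ip1 and Tff1 at the top differ by 5.70 and 5.43, while Ppia, Rpl32 and Fau near the middle line differ by under 0.4. The tight groups of these abundant genes reflect top ranks whose values are the same in all libraries.

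The 2 genes with the largest rises, Pdzk1ip1 and Tff1, encode small membrane and secreted proteins and were close to silent in CCR8- cells. Pdzk1ip1 (chromosome 4, 115088708 to 115093899), a small membrane protein also called MAP17 that binds PDZ-domain scaffolds of transporters, was 6.97, 4.58, 5.40 and 6.03 in CCR8+ and 0, 0, 0.18 and 0 in CCR8- libraries. All 4 CCR8+ libraries thus carried it at moderate levels and 3 of 4 CCR8- libraries were listed at 0. Its difference was 5.70 ± 0.74 (adjusted p = 0.00156, and at most 0.0141 with any 1 library left out, in limma), and it was the 1 gene called in each of the 28 settings tried. In the MLN it also rose with CCR8, by 3.13 (adjusted p = 0.0199), and the 2 differences were not told apart (adjusted p = 0.314 for heart minus MLN).

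Tff1 (chromosome 17, 31161395 to 31165277), a trefoil peptide secreted by mucosal epithelia and known there for protection and repair, was 4.84, 4.10, 7.98 and 6.28 in CCR8+ and 1.49, 0, 0 and 0 in CCR8- libraries. Every CCR8+ library lay above every CCR8- library by more than 2 log2 units, with CCR8+ replicate 3 the highest. The difference was 5.43 ± 0.67 (adjusted p = 0.00141 in limma, and 0.0506 when only the 8 heart libraries were fitted). All 8 MLN libraries listed the gene at 0, with no spread, and 4 of the 5 libraries that brought it past the filter were heart CCR8+. The heart minus MLN value of 5.43 (adjusted p = 0.00962) therefore describes this pattern and is no independent sign of it. Of its annotated exon bases 31.4% overlap the antisense gene Gm15318, and the sources do not say whether reads were counted by strand. Epithelial markers beside it gave no such split: the 12 markers summed to 10.6 to 46.1 FPKM in CCR8- and 16.7 to 47.0 in CCR8+ libraries, Tff2 and Cldn4 were at 0 in all 8, and Epcam overlapped between the groups (3.61, 2.48, 1.76 and 4.39 in CCR8- against 3.17, 4.70, 3.01 and 2.82 in CCR8+).

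Calca (chromosome 7, 114631478 to 114636357) encodes calcitonin and, by alternative splicing, the vasodilating neuropeptide CGRP. It reached 8.61, 8.98, 9.11 and 7.89 in CCR8+ libraries, against 6.23, 4.29, 1.29 and 6.28 in CCR8- libraries. Unlike Pdzk1ip1 and Tff1 it was present in all heart libraries, and the spread was large in CCR8- cells, down to 1.29 in replicate 3. The difference was 4.12 ± 0.79 (adjusted p = 0.0285 in limma, 0.0688 to 0.106 without CCR8- replicate 2 or CCR8+ replicate 1, 2 or 3). Its call was also lost with only the 8 heart libraries, no filter, no variance trend and 0.1 as the added value. The same held with the replicate number as a block and with other-cell markers as a covariate (adjusted p up to 0.144 across all settings in limma). In the MLN Calca was at most 1.17 in any library, and these low values entered its standard error. Values per gene cannot tell the calcitonin and CGRP transcripts apart.

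Of the other genes for calcitonin-type peptides and their receptors, none was called. Calcrl, the receptor that binds CGRP or adrenomedullin depending on its RAMP partner, was 2.05, 1.38, 1.93 and 2.26 in CCR8+ and 2.33, 2.42, 3.47 and 2.44 in CCR8- cells (adjusted p = 0.623). Ramp3, which turns Calcrl towards adrenomedullin, was abundant at 8.12 to 8.49 in CCR8+ and 8.98 to 9.89 in CCR8- libraries. Its groups did not overlap, but the spread pooled over the 4 groups was wide, and the difference of -1.19 ± 0.91 did not pass (adjusted p = 0.679). Ramp1, the partner that makes the CGRP receptor, overlapped (5.22 to 6.81 against 5.17 to 6.35). Adm, Calcb and Ramp2 fell under the filter, with Ramp2 at 8.08 in CCR8- replicate 3, the library with the high endothelial sum.

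A pair of cytokine genes rose. Csf2 (chromosome 11, 54247271 to 54249667), the growth factor GM-CSF that acts on macrophages and granulocytes, was 2.87, 3.35, 2.65 and 2.65 in CCR8+ libraries, with each CCR8- library at 0. These are low levels, and the size of the difference, 2.88 ± 0.50, depends on the 1 added before the log (adjusted p = 0.0209 in limma, 0.0542 to 0.0611 without CCR8- replicate 2 or CCR8+ replicate 1, 2 or 3). Its call was also lost with an FPKM minimum of 5 and with only the 8 heart libraries (adjusted p up to 0.103 across all settings in limma). Only 1 MLN library held Csf2 at an FPKM of 1 or more. The heart difference exceeded that in the MLN by 3.46 (adjusted p = 0.0321 in limma, up to 0.0786 with 1 library left out). Without MLN CCR8- replicate 4 it did so by 2.88. As Csf2 passed the filter almost only by being high in heart CCR8+ cells, this value is no independent sign of that pattern. Mif (chromosome 10, 75859353 to 75860240), macrophage migration inhibitory factor, was among the abundant transcripts at 10.82, 10.97, 11.16 and 10.66 against 9.46, 9.90, 9.66 and 9.74. It rose 2.32-fold (difference 1.22 ± 0.19, adjusted p = 0.0088, and 0.0542 without CCR8+ replicate 3), and it rose in MLN CCR8+ cells as well, by 0.91 (adjusted p = 0.00905). The annotation holds 2 pseudogenes named after Mif, so reads shared with them could be split.

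Of 24 cytokine and chemokine ligand genes tested, 2 were called higher, none lower and 22 not at all, and 9 more of the list were not tested. Ccl1, the ligand of CCR8 itself, was 5.22, 5.41, 4.63 and 1.47 in CCR8+ cells, while the 4 CCR8- libraries listed it at 0. Its groups did not overlap, with CCR8+ replicate 4 well under the other 3, and the difference of 4.18 ± 0.98 missed the threshold (adjusted p = 0.0821). Il10, the anti-inflammatory cytokine, overlapped: 6.78, 7.88, 6.17 and 7.81 against 9.10, 7.12, 7.14 and 7.18 (adjusted p = 0.881).

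Il1r2 (chromosome 1, 40074079 to 40125231), the decoy receptor that binds interleukin 1 without signalling, was 9.13, 9.10, 8.84 and 8.52 in CCR8+ and 6.47, 7.37, 6.60 and 6.54 in CCR8- libraries. All CCR8+ libraries were above 8.5 and all CCR8- libraries under 7.4. The gene rose 4.44-fold (2.15 ± 0.45, adjusted p = 0.0437 in limma, up to 0.162 without CCR8+ replicate 1, and the call was lost without any 1 of 10 libraries, among them CCR8- replicates 1 to 4 and CCR8+ replicates 1 to 3). Its call was kept with only the 8 heart libraries. The call was lost with median-of-ratios scaling, no filter, no variance trend or other-cell markers as a covariate, among others (adjusted p up to 0.214 in limma). Il1r2 was the 1 called gene of 25 cytokine receptor genes tested.

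**Figure D3:**
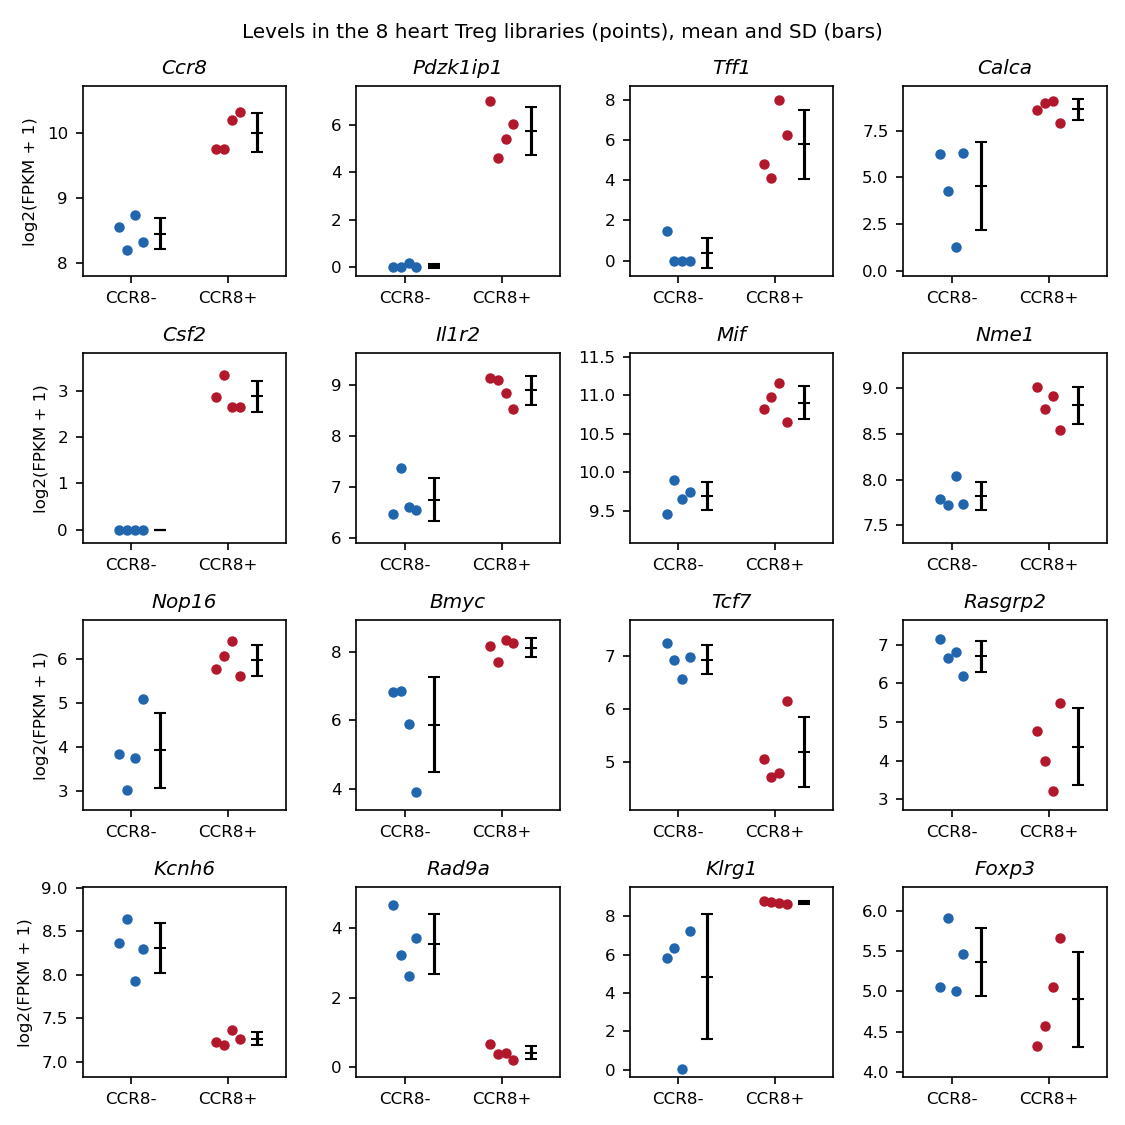
log2(FPKM + 1) of 16 genes in the 4 CCR8- (blue) and 4 CCR8+ (red) heart libraries, each panel with its own axis; black bars give mean and SD. The groups of the first 15 panels do not overlap, although Klrg1 was not called, and those of Foxp3 do.

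A list of genes for ribosome making and cell growth held 4 of the called genes. Of its 30 growth and nucleolar genes tested, 4 were called higher, none lower and 26 not at all, 18 were higher and none lower at an unadjusted p under 0.05 (against 6.09% and 5.06% of all genes), and 27 lay above 0, with a median difference of 0.67. Across all settings tried, 11 to 19 were higher at that unadjusted level, none was lower, and the median stayed between 0.54 and 0.82. The number called was 0 without CCR8+ replicate 1 or 3, with no variance trend and with only the 8 heart libraries, and 1 with other-cell markers as a covariate. A count of this kind describes the list, and the genes were chosen with earlier results of these data known.

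Nme1 (chromosome 11, 93956979 to 93968521), a nucleoside diphosphate kinase that keeps up the pool of nucleoside triphosphates, was 9.01, 8.78, 8.92 and 8.54 in CCR8+ and 7.79, 7.72, 8.05 and 7.73 in CCR8- libraries. The tight groups lay about 1 log2 unit apart (0.99 ± 0.16, adjusted p = 0.0105 in limma, and 0.0596 and 0.0542 without CCR8+ replicate 1 or 3). Nme1 shares 12.5% of its exon bases with the Nme1-Nme2 readthrough Gm20390. Nop16 (chromosome 13, 54584185 to 54590090), a nucleolar protein needed for ribosome assembly, was 5.77, 6.08, 6.42 and 5.63 against 3.84, 3.02, 3.75 and 5.09 (2.05 ± 0.39, adjusted p = 0.0282, and up to 0.0993 with a heart library left out). C1qbp (chromosome 11, 70977836 to 70983026), a mitochondrial matrix protein needed for translation there, was 7.32, 7.24, 7.22 and 7.05 against 6.54, 5.08, 5.79 and 6.13 (1.32 ± 0.28, adjusted p = 0.0437, up to 0.162 with a library left out).

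Bmyc (chromosome 2, 25706739 to 25707721), a relative of Myc that lacks its DNA-binding part, stood at 8.17, 7.70, 8.34 and 8.24 against 6.82, 6.86, 5.88 and 3.89. The lowest CCR8- library, replicate 4, was far under the rest, and the difference of 2.25 ± 0.47 had an adjusted p of 0.0417 (0.133 without CCR8+ replicate 1). Of its exon bases 62.8% overlap an antisense gene, A230005M16Rik, so its reads may not be its own. In the MLN Bmyc rose by 3.22 (adjusted p = 7.35e-04). Uncalled members of the list with no overlap between groups included the GTPase Ran with 0.85 (adjusted p = 0.0737), the spermidine synthase Srm with 3.29 (adjusted p = 0.138) and the nucleolar pseudouridine synthase Dkc1 with 1.48 (adjusted p = 0.19).

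The promoters of 3 genes called higher are shown as examples picked by hand, each with a marked motif. Their values separate the groups, as those of all 38 called genes do. The 250 bases before their start overlap no annotated exon. Sequences are from RefSeq (GRCm38.p6), 5′ to 3′ on the strand of the gene. Capitals mark 3 motifs searched on both strands: CACGTG, the E-box that Myc and related factors bind, TGANTCA, the AP-1 site, and CCAAT or its reverse complement ATTGG. Pdzk1ip1 is at chr4:115088458-115088707 (plus strand), Calca at chr7:114636358-114636607 (minus strand) and C1qbp at chr11:70983027-70983276 (minus strand).
Pdzk1ip1: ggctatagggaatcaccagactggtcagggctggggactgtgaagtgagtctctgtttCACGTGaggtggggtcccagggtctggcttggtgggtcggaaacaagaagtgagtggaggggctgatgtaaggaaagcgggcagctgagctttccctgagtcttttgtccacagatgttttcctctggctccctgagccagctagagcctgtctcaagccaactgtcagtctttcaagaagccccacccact
Calca: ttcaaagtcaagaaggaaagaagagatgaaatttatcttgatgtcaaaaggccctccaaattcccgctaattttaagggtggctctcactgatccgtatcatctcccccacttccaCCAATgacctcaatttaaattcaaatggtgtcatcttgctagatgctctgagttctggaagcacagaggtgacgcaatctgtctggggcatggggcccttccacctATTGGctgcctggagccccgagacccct
C1qbp: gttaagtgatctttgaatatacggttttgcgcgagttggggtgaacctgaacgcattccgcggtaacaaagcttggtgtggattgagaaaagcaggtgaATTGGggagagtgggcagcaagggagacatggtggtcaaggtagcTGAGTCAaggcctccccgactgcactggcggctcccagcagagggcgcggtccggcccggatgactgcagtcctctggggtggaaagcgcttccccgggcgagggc

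RefSeq windows were found for 35 of the 38 called genes, 28 windows for 26 of the genes called higher and 11 for 9 called lower. CACGTG was in 5 of the 28 windows of higher genes (17.9%), in 0 of the 11 of lower genes, in 8.37% of 10590 windows of tested genes and in 6.02% of all 32851. The 5 windows belong to Pdzk1ip1, Ppa1, Il1r2 and Nme1. Nme1 has 2 of these windows, with separate sites 18 and 29 bases before different starts, and the second window lies inside the annotated gene. TGANTCA was in 3 windows of higher genes (10.7%, in Nme1, Mlf1 and C1qbp), against 4.29% of windows of tested genes, and CCAAT in 25.0% against 35.9%. TATAAA, also searched, was in 10.7% of windows of higher genes, 18.2% of lower genes and 6.69% of tested genes. A match is a description of the letters in the window and names no factor as bound there.

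Among called genes of no list, Rrp15, which takes part in large ribosomal subunit assembly, was 6.40, 5.26, 6.27 and 5.76 against 3.80, 4.20, 4.05 and 4.49 (1.79 ± 0.33, adjusted p = 0.0234, up to 0.111 with a library left out). Dut, the dUTPase that keeps uracil out of DNA, was 6.48, 5.82, 6.36 and 4.98 against 4.43, 2.94, 3.77 and 4.34 (2.04 ± 0.42, adjusted p = 0.0417, up to 0.163). Orc5, part of the origin recognition complex, was 4.95, 4.97, 3.75 and 4.27 against 2.98, 2.14, 0.07 and 1.75 (2.75 ± 0.56, adjusted p = 0.0331, up to 0.143). Cell cycle genes as such were not called: of 26 tested, 0 passed, 3 were higher and none lower at an unadjusted p under 0.05, and 20 lay above 0 with a median of 0.45. Rrm2, the ribonucleotide reductase subunit of S phase, was 4.74, 2.85, 4.62 and 2.35 against 1.12, 2.51, 0.01 and 0.55 (adjusted p = 0.127), and its groups overlapped.

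Genes of 2 mitochondrial lists gave 1 call in each direction. Of 78 mitochondrial ribosomal protein genes, 1 was called higher and none lower, 17 were higher and none lower at an unadjusted p under 0.05, and 67 lay above 0 with a median of 0.38. The called gene, Mrpl12 (chromosome 11, 120484613 to 120489065), a protein of the large mitochondrial ribosomal subunit, was 6.86, 5.85, 6.29 and 6.42 against 3.94, 5.04, 2.95 and 5.65. Its difference of 1.96 ± 0.42 (adjusted p = 0.0472) was lost in 15 of 16 fits that each dropped 1 library, so it stood at the edge of the threshold. Of 92 respiratory chain and ATP synthase genes, none was called higher and 1 lower, 13 were higher and 3 lower at the unadjusted level, and 71 lay above 0 with a median of 0.19.

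The gene called lower was Atp5md, a small subunit of ATP synthase, at 11.19, 11.13, 11.22 and 11.22 against 11.74, 11.89, 11.53 and 11.74 (-0.53 ± 0.11, adjusted p = 0.0315, up to 0.111 with a library left out). Further called genes act in or on mitochondria or phosphate metabolism. Chchd4, which imports proteins into the space between the mitochondrial membranes, was 4.62, 4.46, 3.87 and 4.63 against 2.83, 2.39, 1.51 and 0 (2.72 ± 0.53, adjusted p = 0.0297). Sfxn1, a serine carrier of the inner mitochondrial membrane, was 4.93, 4.60, 5.18 and 4.33 against 3.28, 3.54, 3.01 and 2.71 (1.62 ± 0.35, adjusted p = 0.0472). Ppa1, the cytosolic pyrophosphatase, was 7.09, 6.80, 7.05 and 6.41 against 4.86, 5.45, 5.08 and 5.98 (1.5 ± 0.30, adjusted p = 0.0301). For each of these 3 the groups did not overlap. Chchd4, Sfxn1 and Ppa1 kept their calls in 11, 3 and 10 of 16 fits that each dropped 1 library. Each was lost without CCR8+ replicate 1, among others (adjusted p = 0.111, 0.163 and 0.133 in limma).

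Of 47 proteasome genes, 1 was called higher and none lower, 8 were higher and none lower at the unadjusted level, and 40 lay above 0 with a median of 0.27. The called gene was Psmb8 (chromosome 17, 34197721 to 34201454), a catalytic subunit of the immunoproteasome that shapes peptides for MHC class I. It was 9.68, 9.46, 9.47 and 9.57 against 8.94, 8.66, 8.65 and 8.81 (0.78 ± 0.16, adjusted p = 0.0315, up to 0.133 with a library left out), and it rose in the MLN by 0.69 (adjusted p = 0.0147). Psme1 and Psme2, the activator subunits induced with it, differed by 0.63 and 0.57 without passing (adjusted p = 0.192 and 0.278). Among 27 interferon response genes Psmb8 was the 1 called, and the median of the list was 0.17.

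Cytosolic ribosomal protein genes gave 3 calls, 1 higher and 2 lower, all small. Of 82 tested, Rpl32 was called higher by 0.36 ± 0.07, and Rps27 and Fau lower by 0.52 ± 0.07 and 0.31 ± 0.06 (adjusted p = 0.0322, 0.00267 and 0.0443). At the unadjusted level 9 were higher and 10 lower, against 6.09% and 5.06% of all genes, and the median was -2.34e-05. Fau kept its call in only 2 of 16 fits that each dropped 1 library, and Rpl32 in 10. Rps27 was the first or the second most abundant gene in each CCR8- library and the third in each CCR8+ library, and since the deposited values are equal rank by rank at the top, its 4 CCR8+ values are all 14.30. Its step was opposite in the MLN, where CCR8+ was higher by 0.37 (adjusted p = 1.61e-04 for heart minus MLN). Tpt1, a translationally controlled growth protein, fell by 0.80 ± 0.16 (11.14, 11.29, 11.36 and 11.41 against 11.97, 12.24, 12.39 and 11.81, adjusted p = 0.0301), and Ppia, cyclophilin A, rose by 0.39 ± 0.07 (adjusted p = 0.0234) but was lower in MLN CCR8+ cells by 0.37. Rpl32, Fau and Ppia held ranks 5 to 18 in the heart libraries, within the 74 ranks of equal values. Their spread within groups is thus set by shared steps, as for Rps27. Each lost its call with no variance trend, among others (adjusted p up to 0.601, 0.664 and 0.570 across all settings in limma). Tpt1, Fau, Rps27 and Rpl32 have pseudogenes named after them (6, 2, 1 and 1), which could take a share of their reads.

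**Figure D4:**
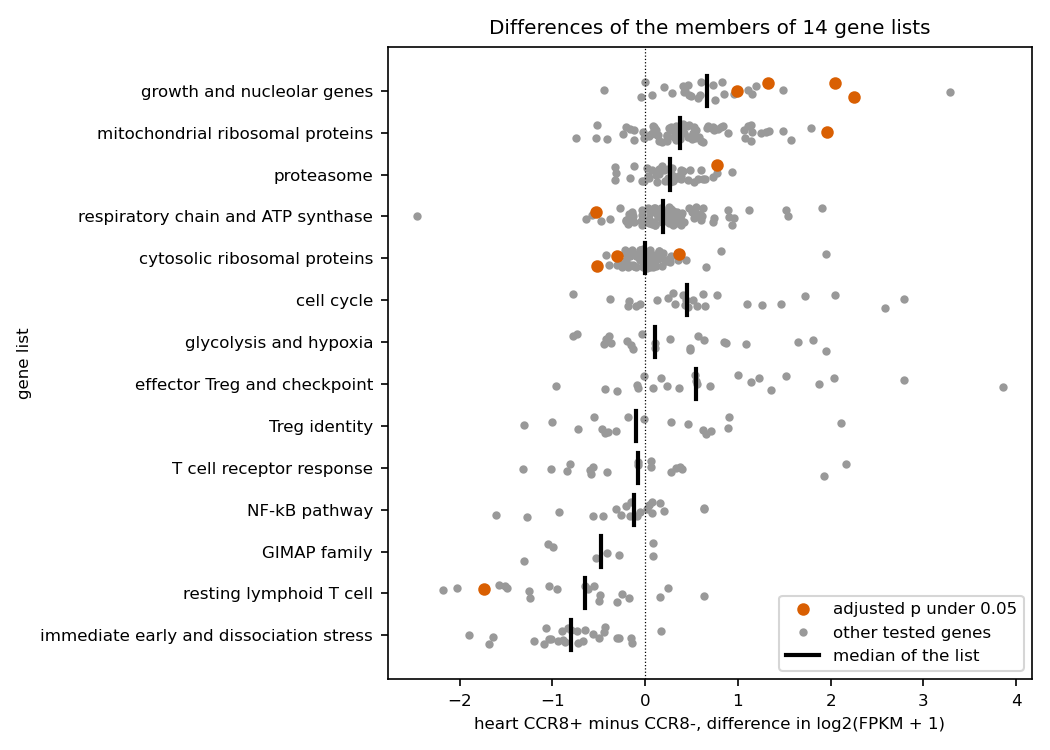
Difference in log2(FPKM + 1), heart CCR8+ minus CCR8- (n = 4 and 4), of each tested gene (points, spread vertically for sight) in 14 gene lists; black lines are list medians and orange points are genes with an adjusted p under 0.05. Medians run from 0.67 for growth and nucleolar genes to -0.80 for immediate early genes.

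Among genes of resting T cells 1 was called, lower in CCR8+ cells. Tcf7 (chromosome 11, 52252371 to 52283014), the factor TCF1 of naive and memory T cells, was 5.06, 4.72, 4.80 and 6.14 in CCR8+ and 7.23, 6.91, 6.56 and 6.97 in CCR8- libraries. It fell by 1.74 ± 0.37 (adjusted p = 0.0472 in limma), the groups did not overlap, and the call was lost in 12 of 16 fits that each dropped 1 library (adjusted p up to 0.162). Klf2, a factor that keeps T cells quiescent and drives S1pr1, stood at 5.62, 6.05, 6.45 and 6.85 against 7.60, 8.47, 7.97 and 7.25 (-1.58 ± 0.35, adjusted p = 0.0526). Of 21 genes of the list, 1 was called lower, none higher and 20 not at all. At an unadjusted p under 0.05, 8 were lower and none higher, against 5.06% and 6.09% of all genes. Under 0 lay 18, against 49.9% of all genes, with a median of -0.65. Ccr7, a chemokine receptor that guides T cells into lymph nodes, was not among them, with a difference of 0.63 (adjusted p = 0.704) that was 0.14 without CCR8- replicate 3 and 0.35 without CCR8+ replicate 4.

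Rasgrp2 (chromosome 19, 6399340 to 6415216), which activates the GTPase Rap1 downstream of calcium and diacylglycerol and thereby integrin adhesion, was 4.77, 3.99, 3.21 and 5.5 in CCR8+ and 7.14, 6.65, 6.81 and 6.18 in CCR8- libraries. It fell 5.04-fold (-2.33 ± 0.47, adjusted p = 0.0329 in limma, up to 0.12 without CCR8+ replicate 3) and fell in MLN CCR8+ cells too, by 1.91 (adjusted p = 0.0242). Rap1b, its target GTPase, did not overlap either, at 8.01 to 8.45 against 8.62 to 9.30, but was not called (adjusted p = 0.236). Of 16 Ras and Rap1 genes Rasgrp2 was the 1 called. The GIMAP family, small GTPases of lymphocyte survival, had no called member among 8, and Gimap6 came nearest with 8.53, 8.23, 8.98 and 8.98 against 9.95, 10.05, 9.49 and 9.40 (adjusted p = 0.0518).

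Kcnh6 (chromosome 11, 106008124 to 106034549), a voltage-gated potassium channel subunit, was 7.23, 7.20, 7.36 and 7.26 in CCR8+ and 8.36, 8.63, 7.93 and 8.30 in CCR8- libraries. The CCR8+ libraries were within 0.2 of each other and the gene fell by 1.04 ± 0.20 (adjusted p = 0.0301, up to 0.111 without CCR8+ replicate 1), with a like fall of 1.28 in the MLN (adjusted p = 0.00149). Rad9a (chromosome 19, 4195196 to 4201662), of the DNA damage checkpoint clamp, was 0.68, 0.38, 0.40 and 0.21 in CCR8+ libraries, under an FPKM of 1 in each, against 4.67, 3.23, 2.62 and 3.71 in CCR8- libraries. It fell by 3.14 ± 0.55 (adjusted p = 0.0209, and 0.0548 to 0.0596 without CCR8+ replicate 1, 2 or 3), and it was 2.57 to 4.68 in all 8 MLN libraries. Ppp1ca on the opposite strand overlaps 9.5% of its exon bases and itself differed by 0.15 ± 0.16 (adjusted p = 0.782). None of the other 12 checkpoint clamp and ATR genes tested was called.

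Ppcdc, an enzyme of coenzyme A synthesis, fell from 6.71, 7.69, 7.27 and 7.07 to 5.12, 5.39, 6.03 and 5.69 (-1.63 ± 0.30, adjusted p = 0.0234). Dpt, dermatopontin of the extracellular matrix and one of the 12 fibroblast markers, was 0.53, 0.10, 0 and 0.81 in CCR8+ against 2.99, 3.12, 2.53 and 2.20 in CCR8- libraries (-2.35 ± 0.46, adjusted p = 0.0301). All 10 fibroblast markers tested lay under 0 with a median of -1.10, 1 of them called, and all 6 endothelial markers tested lay under 0 with a median of -1.45, none called. Without CCR8- replicate 3 and CCR8+ replicate 1 the fibroblast median was 0.13, over the 9 markers then tested. The endothelial median was -0.64 over 4 markers without CCR8- replicate 3, and -0.51 with 2 of 6 markers above 0 when other-cell markers were a covariate. Dpt lost its call with that covariate, and without CCR8- replicate 1 or 2 or CCR8+ replicate 1, 2 or 3 (adjusted p up to 0.139 across all settings in limma). As the covariate includes Dpt itself, the part of fibroblast RNA in the difference of Dpt was not tested.

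Immediate early and dissociation stress genes leaned lower in CCR8+ libraries, none past the threshold. Of 27 tested, 0 were called. At an unadjusted p under 0.05, 10 were lower and none higher, against 5.06% and 6.09% of all genes. Under 0 lay 26, against 49.9% of all genes, with a median of -0.80. Socs3, a feedback inhibitor of cytokine signalling, was 4.02, 4.73, 5.45 and 4.74 against 6.38, 7.45, 6.18 and 5.67 (adjusted p = 0.133), and Egr1 was 2.91, 4.80, 4.10 and 5.21 against 5.29, 6.28, 8.46 and 4.58 (adjusted p = 0.259). The 8.46 of Egr1 was CCR8- replicate 3, the library with the high endothelial sum. Without the 2 libraries CCR8- replicate 3 and CCR8+ replicate 1 the median was -0.46 and 3 genes were lower at the unadjusted level.

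The markers by which Tregs are usually known did not separate the groups past the threshold. Of 18 Treg identity genes none was called, and the median was -0.09. At the unadjusted level 4 were higher and 1 lower, against 6.09% and 5.06% of all genes. Il2ra, the interleukin 2 receptor alpha chain CD25, was 6.77, 6.90, 6.85 and 6.02 against 5.21, 5.23, 3.59 and 4.07, with no overlap and a difference of 2.11 ± 0.49 (adjusted p = 0.0755). Tnfrsf4, the costimulatory receptor OX40, was 11.49, 11.19, 11.67 and 11.51 against 10.69, 10.28, 10.27 and 11.03 (0.90 ± 0.21, adjusted p = 0.0692). Ctla4, the coinhibitory receptor, overlapped at 10.07, 10.14, 10.02 and 10.78 against 11.11, 10.82, 9.90 and 10.80 (adjusted p = 0.767).

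No effector or checkpoint gene was called: of 23 tested, 7 were higher and none lower at the unadjusted level, and 17 lay above 0 with a median of 0.55. Without CCR8- replicate 3 the median was 0.28, with 4 higher and 2 lower at the unadjusted level, without it and CCR8+ replicate 1 it was 0.11, and with other-cell markers as a covariate it was 0.24. Havcr2, the inhibitory receptor TIM-3, was 5.33, 3.63, 4.72 and 4.29 against 2.34, 1.04, 0.05 and 3.37 (2.79 ± 0.67, adjusted p = 0.0849). Klrg1, a receptor of terminally differentiated T cells, was near constant in CCR8+ libraries at 8.78, 8.75, 8.70 and 8.61, and 5.84, 6.32, 0.04 and 7.22 in CCR8- libraries, so that replicate 3 alone set much of the spread. Its heart difference of 3.86 ± 1.19 was not called (adjusted p = 0.209) and was 2.25 without CCR8- replicate 3. It differed from that in the MLN, where CCR8+ cells were lower by 3.89 (adjusted p = 0.0482 for heart minus MLN), a call lost in most fits that each dropped 1 library (adjusted p up to 0.106). Tnfrsf9, the costimulatory receptor 4-1BB, was 8.56, 8.74, 8.97 and 9.63 against 7.90, 7.93, 7.14 and 8.02 (adjusted p = 0.162).

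Among tissue repair genes Tff1 was the 1 called of 19 tested. Areg, amphiregulin, was high in both groups, at 8.69, 9.20, 8.90 and 8.86 against 7.69, 9.0, 6.56 and 7.93 (adjusted p = 0.552). Il1rl1, the interleukin 33 receptor ST2, was 6.70, 6.41, 6.65 and 6.64 against 4.16, 6.0, 4.60 and 5.63, with no overlap and a difference of 1.5 ± 0.53 (adjusted p = 0.278), and its difference exceeded that in the MLN by 3.48 ± 0.75 (adjusted p = 0.0452, up to 0.10 with 1 library left out). Sparc, a matrix protein of fibroblasts and endothelium, was 0.57, 5.27, 6.08 and 7.32 against 6.99, 7.03, 10.80 and 7.51 (adjusted p = 0.234). Its lowest value was in CCR8+ replicate 1, with the lowest fibroblast, endothelial and macrophage sums of the 8, and its highest in CCR8- replicate 3.

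Of 22 genes in the list of Treg transcription factors, 1 was called, and the median was -0.21. At an unadjusted p under 0.05, 4 were higher and 1 lower, against 6.09% and 5.06% of all genes. The called gene was Mlf1, which is not a classical transcription factor: this nucleocytoplasmic protein first known from myeloid leukemia (chromosome 3, 67374097 to 67400003) was 4.23, 5.56, 4.98 and 3.40 in CCR8+ and 0, 0, 3.08 and 0 in CCR8- libraries (3.77 ± 0.65, adjusted p = 0.0202, and 0.0548 to 0.0589 without CCR8- replicate 2 or CCR8+ replicate 1, 2 or 3). No MLN library held it at an FPKM of 1. Batf and Gata3, factors of effector and type 2 tissue Tregs, overlapped with differences of 0.03 and 0.09 (adjusted p = 0.984 and 0.969), whose sign turned in some settings. Pparg, the factor of fat tissue Tregs, was 3.28, 4.74, 3.05 and 3.82 against 3.11, 2.42, 0.06 and 0 (adjusted p = 0.242).

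Of 14 chemokine receptor genes tested, Ccr8 was the 1 called. Cxcr5, the receptor that leads to B cell follicles, was 0, 0.26, 2.72 and 2.27 against 3.08, 3.98, 3.65 and 4.35 (-2.45 ± 0.59, adjusted p = 0.0887). Cxcr3, a receptor of type 1 inflammation, was 5.79, 4.77, 5.29 and 6.83 against 7.43, 7.05, 6.44 and 7.85 (adjusted p = 0.128). Ccr3, the eotaxin receptor, was 4.97, 6.50, 5.83 and 5.73 against 4.79, 3.67, 0 and 4.19 (adjusted p = 0.245). Its difference, 2.60, exceeded that in the MLN, -3.29 (adjusted p = 0.0321, up to 0.0874 with 1 library left out).

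The remaining called genes have scattered roles. Ak6, a nuclear adenylate kinase, differed by 3.95 ± 0.73 (5.47, 3.93, 5.17 and 4.13 against 0.58, 0.15, 0 and 2.18, adjusted p = 0.0234), but it shares 56.5% of its exon bases with Taf9 on the same strand, which itself stood at 7.79 ± 0.18 against 7.88 ± 0.58 (SD, n = 4 each, adjusted p = 0.941), so the split of reads between them is uncertain. Rabepk, a Rab9 effector of endosome transport, rose by 3.18 ± 0.61 (adjusted p = 0.0282) and Tfpt, a subunit of the INO80 chromatin remodeller, by 2.03 ± 0.44 (adjusted p = 0.0479). Comtd1, of whose exon bases 36.3% overlap an antisense gene, rose by 2.84 ± 0.59 (adjusted p = 0.0421) and 2210016F16Rik by 2.14 ± 0.35 (adjusted p = 0.0105). Rabepk, Tfpt, Comtd1 and 2210016F16Rik kept their calls in 11, 3, 5 and 14 of 16 fits that each dropped 1 library. The called genes Tff1, Mlf1, Csf2 and Ccdc184 had at most 1 library with an FPKM of 1 or more outside heart CCR8+ cells, so they could pass the filter almost only by being high there. Ccdc184 (2.40, 3.40, 2.09 and 1.5 against at most 0.02 in each CCR8- library) passed through heart CCR8+ libraries alone, so it had to differ and its call is no support.

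Setting heart beside MLN, 42 of 10369 genes (0.405%) had a CCR8 difference that differed between the tissues, and 5 of them were among the 38 called in heart: Tff1, Csf2, Ppia, Rps27 and Dpt. Those of Csf2 and Dpt were lost in some fits with 1 library left out (adjusted p up to 0.0786 and 0.0907). For Tff1 and Csf2 the heart difference was positive, and at most 1 library outside heart CCR8+ cells reached an FPKM of 1. The filter thus favoured this pattern in both genes, and their calls here are no independent sign of it. For Ppia and Rps27 the 2 tissues moved in opposite directions by under 1 log2 unit. For the other 33 called genes a difference between tissues was not shown, which does not mean that they act alike in both.

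**Figure D5:**
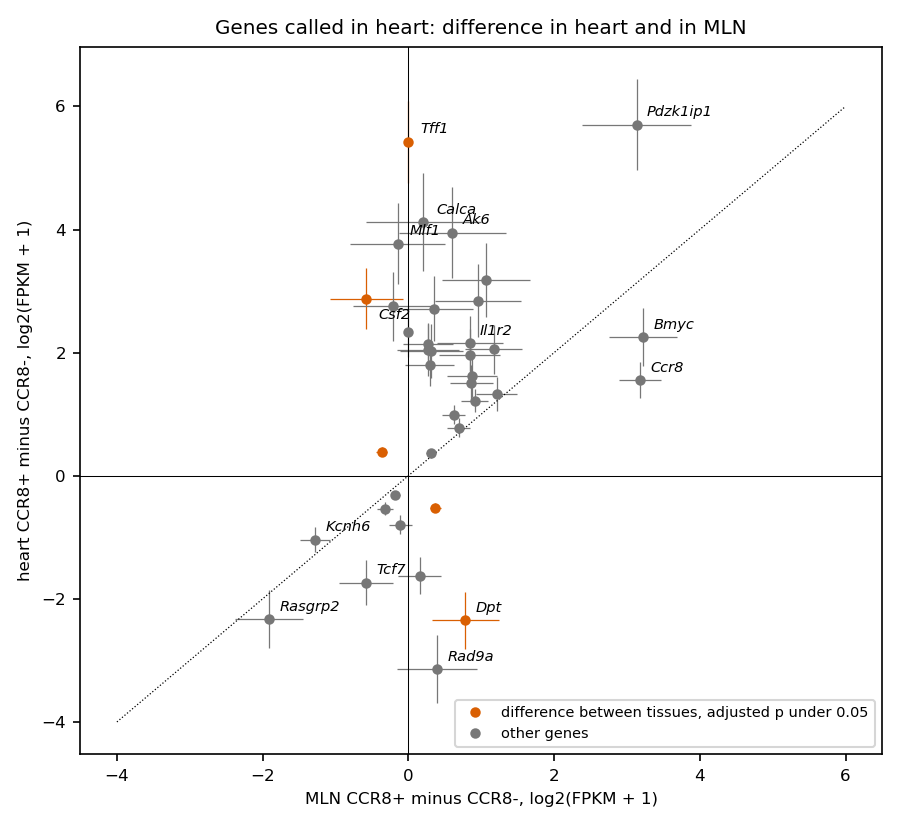
CCR8+ minus CCR8- in heart (vertical) against MLN (horizontal), in log2(FPKM + 1) with standard errors, for the 38 genes called in heart; orange genes differ between tissues at an adjusted p under 0.05 and the dotted line marks equal differences. Tff1 sits at 5.43 in heart and 0 in MLN, while Pdzk1ip1, Bmyc and Ccr8 lie at 3.13, 3.22 and 3.18 in MLN.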

How the data were processed

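Heart CCR8+ and CCR8- Treg libraries were grouped by their labels, 4 each. The authors deposited 1 table of log2 values for 16 libraries. Per the submitters' processing notes, HISAT2 2.0.5, featureCounts 1.5.0-p3 and the build mm10 (GRCm38) were used. No source used here gives the log and between-library scaling steps. The deposited log2 values were equal rank by rank over the top 74 ranks in all libraries, so differences are relative to a shared distribution, and the levels of the most abundant genes move in steps.

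Of 19219 rows, 24 whose gene name had become a date were left out, leaving 19195 genes. The 10369 genes that reached an FPKM of 1 in 4 libraries or more were tested with limma 3.58.1 in R 4.3.3, as 4 group means with a variance trend, two-sided, with Benjamini-Hochberg adjustment. The procedure was tested on simulated data. Read depth is unknown. Replicate numbers were not used as pairs, since they share only a number. Positions are from GENCODE vM21 (GRCm38).

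The members and all gene lists were chosen with earlier results of these data known, and lists are described by counts and medians only. Named genes were a preset group of Treg genes, every called gene with a symbol of a named gene, and the members of each list with the smallest p. Outside this rule, 2210016F16Rik, Ran, Srm and Dkc1 were chosen after their values were seen. Alternatives changed the scaling, filter, added value, variance trend, weights, block and libraries.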

Additional observations from a re-analysis of the deposited data

Results flagged for a closer look

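Within a group of 4 libraries, a value is given here when its gap to the nearest other library took up more of the group's range than Dixon's critical value for 4 samples, which chance alone gives in about 1 in 20 groups. The rule was run in both heart groups for every preset or called gene and for 13 marker lists. Several such values would thus arise by chance alone. Among CCR8- libraries, replicate 3 stood apart for summed FPKM of T cell markers at 4430, of endothelial markers at 5640 and of smooth muscle and pericyte markers at 335, and for Batf at 7.55, Tnfrsf9 at 7.14, Pdzk1ip1 at 0.18 and Mlf1 at 3.08. CCR8- replicate 2 stood apart for Il1r2 at 7.37, Rps27 at 14.60 and Ccdc184 at 0.0154, and CCR8- replicate 1 for Il10 at 9.10 and Tff1 at 1.49. Among CCR8+ libraries, replicate 2 stood apart for summed FPKM of dendritic cell markers at 4051, replicate 4 for Il2ra at 6.02 and Ctla4 at 10.78, and replicate 1 for Rpl32 at 13.35. For Tff1, Pdzk1ip1, Mlf1, Rps27 and Rpl32 the other 3 libraries of the group shared 1 value, so that any different value is singled out.

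Several genes had a CCR8 difference in heart that differed from the one in the MLN by the interaction term in limma. Heart minus MLN was 7.75 for Klrg1, 5.43 for Tff1, 3.48 for Il1rl1, 3.46 for Csf2 and 0.75 for Ppia, and it was -3.13 for Dpt and -0.89 for Rps27. The calls of Klrg1, Il1rl1, Csf2 and Dpt were each lost in some fits with 1 library left out.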

How the results depend on the processing

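The number of genes called in heart, 38, was 34 to 46 with median-of-ratios scaling, an FPKM minimum of 5, a filter on the heart mean, 0.1 in place of the added 1 or array weights. It was 13 with no filter on low values, 8 with no variance trend and 5 with only the 8 heart libraries. With 1 library left out it ran from 3 to 51, and in the settings added after seeing the data it was 7, 12 and 18. With the replicate number as a block it was 20, all 20 among the 38, but same-numbered libraries did not deviate together (r of -0.0386 to 0.0589) and only replicate 1 correlated best with its own number. The 42 genes differing between heart and MLN became 18 with no filter, 15 with no variance trend and 24 without CCR8- replicate 3 and CCR8+ replicate 1, and ran from 29 to 62 with 1 library left out. The difference in genes above 0 ran from -743.667 to -223 with a heart library left out. Batf, 0.03, was -0.0565 with array weights and -0.0702, -0.338 and -0.261 in the added settings, and ran from -0.267 to 0.231 with 1 library left out. Gata3, 0.09, was -0.204, -0.192 and -0.141 in the added settings and ran from -0.254 to 0.386, and Il10, -0.47, ran from -0.714 to 0.0163. The cause of these changes was not tested. About 100 cells per library and an unknown read depth limit what can be said of genes at low levels, where a value of 0 may be a missed transcript.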

Other observations

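No gene of 6 further lists was called. Of 23 glycolysis and hypoxia genes, 6 were higher and none lower at an unadjusted p under 0.05, against 6.09% and 5.06% of all genes. With no overlap 5 lay above and 1 below, against 3.45% and 3.53% of all genes, and the median difference was 0.10. Of 18 T cell receptor response genes none was called, with 2 higher and 1 lower at that level and a median of -0.08. Of 20 NF-kB pathway genes none was called, 2 were lower at that level and the median was -0.12. Of 17 integrin and adhesion genes none was called, 2 were lower at that level and the median was -0.14. Of 19 S100 and annexin genes none was called and the median was -0.05, and of 8 granzyme and cytotoxic granule genes none was called or passed the unadjusted level.

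Markers of rarer cells overlapped widely. The 9 neutrophil markers summed to 2.87 to 39.4 FPKM in CCR8- and 2.39 to 11.8 in CCR8+ libraries. The 9 markers of mast cells, basophils and type 2 innate lymphoid cells summed to 3.22 to 12 FPKM in CCR8- and 8.26 to 17.7 in CCR8+ libraries, with Mcpt4 at 0 in all 8.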
